A study of Mus musculus with 9 samples.

Results

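The T cell antigen receptor complex and the CD8 coreceptor were examined through 10 genes, selected by symbol from the 24391 genes listed. They encode the CD3 chains (Cd3d, Cd3e, Cd3g), the zeta chain (Cd247), both CD8 chains (Cd8a, Cd8b1), the kinases Lck and Zap70, the adaptor Lat and the surface receptor Cd5. The RNA came from cultured mouse CD8+ T cells. Of the 9 libraries, 4 came from cells activated for 72 h with an inhibitor of the histone demethylase LSD1 (LSD1i) and 5 from untreated cells (NT) activated for 72 h without it, and medium with interleukin 2 at 100 U/mL was used throughout. The labels name no compound, dose, mouse strain or age. They number the replicates but tie none to an animal or a culture, and each p-value below therefore reflects library-to-library spread, part or all of which may be technical.

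In a CD8+ T cell the antigen receptor recognises a peptide held by an MHC class I molecule, while CD8 binds the same MHC molecule and brings Lck to the complex. Lck phosphorylates paired tyrosine motifs in the tails of the CD3 and zeta chains, Zap70 docks there, and Zap70 in turn phosphorylates the scaffold Lat, from which calcium and kinase pathways branch. Cd5 is a surface receptor that dampens this signal and whose level in T cells is known to follow its strength. Whether treatment with the inhibitor changes this machinery bears on the study's stated interest in the responsiveness of CD8+ T cells.

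Library totals lay between 15163983 and 29245278 raw reads. The deposited raw and batch-corrected tables give 4 of the 9 libraries opposite group names: those called NT 1, NT 2, LSD1i 1 and LSD1i 2 in the batch-corrected table are called LSD1i 1, LSD1i 2, NT 1 and NT 2 in the raw one. The labels do not settle which is right, so libraries carry the batch-corrected names below unless stated, and every direction holds for those names. In the 5 libraries named alike in both tables, raw reads of Trpm6 numbered 403 and 595 in LSD1i 3 and LSD1i 4, against 0, 3 and 5 in NT 3 to NT 5, and Gfi1 had 5540 and 5965 in LSD1i 3 and LSD1i 4, against 2729, 2482 and 2528 in NT 3 to NT 5. Under the batch-corrected names the other 4 libraries had 285 and 364 Trpm6 reads and 6294 and 6808 Gfi1 reads in LSD1i 1 and LSD1i 2, against 3 and 0 Trpm6 reads and 3490 and 2438 Gfi1 reads in NT 1 and NT 2, so the groups did not overlap under these names. These genes were chosen after their values were seen, and no library was assigned to a group from them. Replicates 1 and 2 were taken as a first batch and replicates 3 to 5 as a second, a split that the labels do not give. For Cd3d, the level after correction was 1.35 to 1.44 times the raw level in the first and 0.737 to 0.845 times in the second. Results by batch below hold for that split. NT 1 stands apart, with 13.3% of its raw reads on the ribosomal RNA precursor Rn45s against 1.66% to 2.87% in the other libraries.

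The labelled cell type was checked against marker genes in raw reads. The 10 receptor genes had 578 to 13427 reads in every library and together took 0.246% to 0.309% of a library's reads. Cd4, which marks helper T cells, had 0 to 6 reads in LSD1i libraries and 1 to 7 in NT libraries. Of 7 B cell markers, 5 had at most 10 reads in any library, among them Ms4a1 (0 to 3 in LSD1i libraries, 0 to 3 in NT libraries) and Pax5 (0 in LSD1i libraries, 0 to 1 in NT libraries). Above that lay Cd79b (133 to 191 reads in LSD1i libraries, 196 to 312 in NT libraries) and Cd22 (17 to 55 in LSD1i libraries, 0 to 9 in NT libraries). The summed B cell list lay at 9.02 to 12.9 CPM (counts scaled to a common library size) in LSD1i libraries and 10.7 to 12.3 CPM in NT libraries. The NK and gamma delta T cell list summed to 0.292 to 0.534 CPM in LSD1i libraries and 0.460 to 0.902 in NT libraries, with the NK receptor gene Ncr1 at 0 throughout. Of its 8 symbols 4 were listed, and the gamma delta receptor genes Trdc, Trgc1 and Trgc2 were not among them. That sum therefore leaves out the receptor genes of gamma delta T cells and says little about those cells. The myeloid list summed to 0.471 to 1.11 CPM in LSD1i libraries and 0.708 to 1.18 in NT libraries. Of the mast cell list 5 of 6 genes had at most 10 reads in any library, 2 of them at 0, and the sixth, Kit, is a stem cell factor receptor found on other cells as well; that list summed to 11.5 to 56.4 CPM in LSD1i libraries and 11.1 to 43.6 in NT libraries. Of 6 markers of CD4+ and regulatory T cells Foxp3 had 2 to 4 reads in LSD1i libraries and 0 to 2 in NT libraries, and the list summed to 983 to 1860.0 CPM in LSD1i libraries and 992 to 1730.1 in NT libraries, most of it from Ctla4 and Il2ra, which activated CD8+ T cells also express. Zbtb7b, a CD4 lineage regulator on this list, was not near 0, at 694 to 930 reads in LSD1i libraries and 549 to 1037 in NT libraries. Cd40lg, also on it, is described below. Of 9 symbols of receptor chains looked up, 1 was listed, Ptcra. The constant segments of the receptor's own alpha and beta chains were not listed as Trac, Trbc1 or Trbc2 and were not analysed here.

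The promoters of the genes on which the results turn are shown first: Cd8a, the gene that passed the test, Cd247, the receptor gene whose profile lay nearest to it, and the neighbouring CD3 genes, of which Cd3e behaved unlike the others. Each window runs from 250 bases before to 50 bases after the start site, from RefSeq on GRCm38.p6 (the read counts were made on mm9). Capitals mark every E-box (CANNTG) and every ETS core (AGGAAG, or CTTCCT on the other strand), motifs bound by E proteins and by ETS factors. The windows are chr6:71373177-71373476 (plus strand) for Cd8a, chr1:165788431-165788730 (plus strand) for Cd247, chr9:44981536-44981835 (plus strand) for Cd3d, chr9:44980382-44980681 (minus strand) for Cd3g and chr9:45009562-45009861 (minus strand) for Cd3e.
Cd8a: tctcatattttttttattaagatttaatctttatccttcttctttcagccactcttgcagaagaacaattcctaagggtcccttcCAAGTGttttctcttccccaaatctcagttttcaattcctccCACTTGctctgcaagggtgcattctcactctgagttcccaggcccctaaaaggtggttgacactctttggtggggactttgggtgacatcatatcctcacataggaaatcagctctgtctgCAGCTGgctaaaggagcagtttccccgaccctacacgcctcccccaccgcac
Cd247: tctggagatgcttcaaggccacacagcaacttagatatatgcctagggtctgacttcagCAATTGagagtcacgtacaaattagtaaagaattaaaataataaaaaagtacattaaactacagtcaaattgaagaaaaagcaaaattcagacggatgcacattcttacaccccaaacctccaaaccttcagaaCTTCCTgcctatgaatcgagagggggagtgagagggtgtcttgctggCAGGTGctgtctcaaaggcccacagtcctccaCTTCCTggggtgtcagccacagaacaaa
Cd3d: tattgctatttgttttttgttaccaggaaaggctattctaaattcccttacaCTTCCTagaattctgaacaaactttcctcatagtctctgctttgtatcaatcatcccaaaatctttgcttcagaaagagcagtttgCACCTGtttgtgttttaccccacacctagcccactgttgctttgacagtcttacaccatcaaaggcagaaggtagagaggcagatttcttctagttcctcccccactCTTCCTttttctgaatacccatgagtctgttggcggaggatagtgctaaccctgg
Cd3g: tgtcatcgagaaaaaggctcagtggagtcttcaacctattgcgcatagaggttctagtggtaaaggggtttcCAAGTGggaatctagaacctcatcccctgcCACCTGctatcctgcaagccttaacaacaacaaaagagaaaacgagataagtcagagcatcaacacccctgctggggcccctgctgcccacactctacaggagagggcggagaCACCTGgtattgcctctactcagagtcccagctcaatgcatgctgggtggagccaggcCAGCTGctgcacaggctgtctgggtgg
Cd3e: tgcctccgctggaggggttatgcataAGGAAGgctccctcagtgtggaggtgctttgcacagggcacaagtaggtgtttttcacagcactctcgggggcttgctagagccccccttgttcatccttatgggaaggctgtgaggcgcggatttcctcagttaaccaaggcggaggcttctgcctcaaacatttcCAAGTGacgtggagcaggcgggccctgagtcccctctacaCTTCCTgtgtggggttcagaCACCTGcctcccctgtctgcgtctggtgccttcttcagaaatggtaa

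Cd3d and Cd3g are transcribed away from each other from start sites 1355 bases apart, and the start site of Cd3e lies 27825 bases from that of Cd3d. RefSeq windows were found for 9 of the 10 genes, 12 windows in all, with Cd8b1 having none and Lck and Zap70 having alternative start sites. Searched on both strands, an E-box was present in 12 of the 12 windows against 72.3% of 32817 promoters of the same length, and the ETS core in 9 of 12 against 35.4%. The TATA box letters TATAAA were in 0 of 12 (13.6% of all promoters), the RUNX letters TGTGGT in 3 (16.8%), the GATA letters AGATAA in 1 (11.2%) and the GC box GGGCGG in 2 (35.6%). The Cd8a window held 3 E-boxes and 0 ETS cores, and the Cd3g window 4 E-boxes and 0 ETS cores. Letters that match are a description of these windows and not evidence of a bound factor.

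Transcript levels of both CD8 chains in each LSD1i library exceeded those in every NT library, with Cd8a at 1.30 times its NT level, and the zeta chain gene Cd247 was at 1.19 times its NT level, while Lck, Lat and Cd5 were at 1.01, 1.04 and 1.01 times theirs. Of these, the difference of Cd8a passed the test over all genes. That call was lost in 6 of 9 fits without 1 library, and in raw counts with the batch as a term. In edgeR's quasi-likelihood test of the batch-corrected counts, 1 of the 10 genes was higher at an adjusted p under 0.05 and 0 were lower, where 2.15% of all 11981 tested genes were called higher and 3.31% were called in either direction. An unadjusted p under 0.05 was reached by 3 of the 10, where 14.6% of all genes reached it. The batch had been removed from the batch-corrected counts beforehand, and fits of them charged no degree of freedom for it. Whether that correction used the group names is not stated. All p-values from those counts, in edgeR and DESeq2, may therefore be too small, and the groups may look further apart than they are. All 10 genes passed the low-count filter, and 9 of the 10 log2 fold changes (LSD1i over NT) were above 0, with a median of 0.12 against −0.02 over all tested genes, of which 45.6% were above 0. In bulk RNA, fewer cells of a type and less RNA per cell cannot be told apart.

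Cd8a encodes the chain that carries the Lck-binding tail and can pair with itself or with Cd8b1. Its batch-corrected level was 494, 499, 454 and 489 CPM in LSD1i 1 to LSD1i 4, against 348, 386, 380.3, 338 and 412 CPM in NT 1 to NT 5. Every LSD1i library lay above every NT library, by 41.5 CPM at the closest pair, LSD1i 3 and NT 5. The log2 fold change was 0.38 ± 0.08 (SE), with a 95% interval of 0.20 to 0.55 (adjusted p = 0.0266 in edgeR's quasi-likelihood test). In raw CPM the groups were likewise apart, at 511, 516, 409 and 450.0 CPM in LSD1i 1 to LSD1i 4 against 373, 394, 352, 308 and 400.0 CPM in NT 1 to NT 5. Within batches the raw log2 fold change was 0.40 ± 0.15 in the first and 0.29 ± 0.13 in the second, and the difference between batches did not pass (adjusted p = 0.854 in edgeR's quasi-likelihood test).

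Cd8b1 encodes the beta chain, which in conventional CD8+ T cells pairs with Cd8a and strengthens binding to MHC class I. It had 315, 312, 326 and 343 CPM in LSD1i 1 to LSD1i 4, against 268, 289, 275, 232 and 275 CPM in NT 1 to NT 5, so the groups did not overlap. The log2 fold change was 0.27 ± 0.08, with a 95% interval of 0.10 to 0.45, and it did not pass over all genes (adjusted p = 0.104 in edgeR's quasi-likelihood test). In raw CPM the groups were also apart, the lowest LSD1i library at 296 and the highest NT library at 286. The within-batch raw log2 fold changes were 0.18 ± 0.15 in the first batch and 0.37 ± 0.13 in the second.

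Cd247 encodes the zeta chain, a homodimer that carries more signalling motifs than any other chain of the receptor. Its level was 241, 251, 219 and 264 CPM in LSD1i 1 to LSD1i 4, against 193, 215, 209, 188 and 215 CPM in NT 1 to NT 5, again without overlap. The log2 fold change was 0.26 ± 0.08, with a 95% interval of 0.08 to 0.43 (adjusted p = 0.134 in edgeR's quasi-likelihood test). In raw CPM the groups overlapped across batches, at 209 to 277 in LSD1i libraries and 156 to 226 in NT libraries, but not within either batch, where the log2 fold changes were 0.29 ± 0.17 in the first and 0.26 ± 0.10 in the second. GENCODE vM21 places 2918 exon bases of Cd247 under Pou2f1 on the opposite strand, and no source states a strand-aware count, so reads there cannot be told apart. Pou2f1 averaged 40.02 ± 5.93 CPM in LSD1i libraries (SD, n = 4) and 39.6 ± 9.17 in NT libraries (n = 5), a log2 fold change of 0.01 ± 0.16. Cd8a, Cd8b1 and Cd247 were the 3 of the 10 genes whose LSD1i libraries all exceeded the NT libraries, a pattern found in 528 of all tested genes, or 4.41%.

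**Figure D1:**
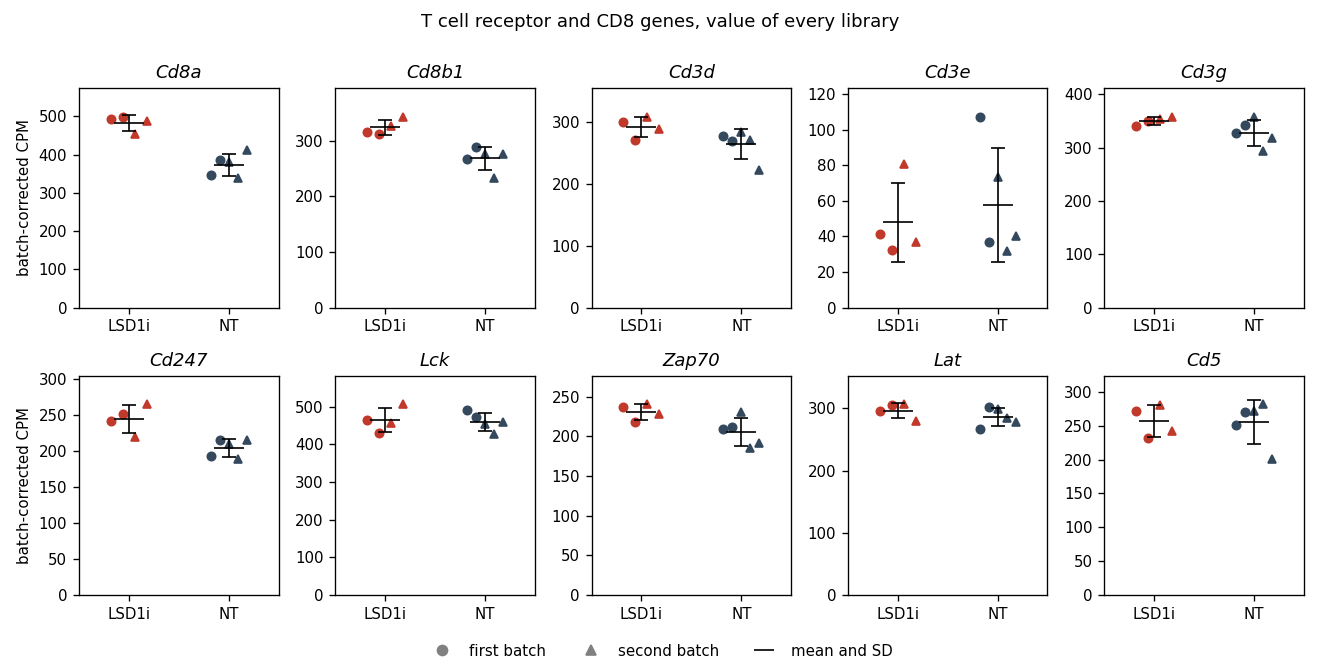
Batch-corrected CPM of the 10 genes in every library (vertical axis, from 0), LSD1i left of NT, with circles for the first batch and triangles for the second; black marks give the mean and SD of 4 LSD1i and 5 NT libraries. Cd8a, Cd8b1 and Cd247 show no overlap between the groups, whereas Cd3e spreads from 31.6 to 107 CPM, both ends of that range in NT libraries.

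The CD3 chains assemble with the antigen-binding chains and carry the signal across the membrane, Cd3e pairing with either Cd3d or Cd3g. Cd3d had 299.7, 271, 308 and 288 CPM in LSD1i 1 to LSD1i 4, against 277, 269, 284, 271 and 223 CPM in NT 1 to NT 5, with 3 of the 4 LSD1i libraries above every NT library. Its log2 fold change of 0.14 ± 0.09 (95% interval −0.05 to 0.33) did not pass (adjusted p = 0.536 in edgeR's quasi-likelihood test). Cd3g had 340.3, 349, 353 and 358 CPM in LSD1i 1 to LSD1i 4, against 328, 343, 357, 293 and 318 CPM in NT 1 to NT 5, and the groups overlapped. Its log2 fold change was 0.10 ± 0.08, with a 95% interval of −0.07 to 0.26 (adjusted p = 0.667 in edgeR's quasi-likelihood test).

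Before batch correction Cd3d and Cd3g separated by batch, and the treatment groups overlapped over all libraries. Raw Cd3d lay at 189 to 222 CPM in the first batch and 302 to 374 CPM in the second, and raw Cd3g at 279.9 to 297 and 313 to 390.3 CPM. Within a batch the treatment groups were apart for Cd3d in the second, at 374 and 364 CPM in LSD1i 3 and LSD1i 4 against 336, 331 and 302 in NT 3 to NT 5, and for Cd3g in the first, at 292 and 297 in LSD1i 1 and LSD1i 2 against 279.9 and 289 in NT 1 and NT 2. In the other batch of each they overlapped. Zap70 also separated by batch, the other way round, at 223 to 259.9 CPM in the first and 167 to 215 CPM in the second. The other 7 genes overlapped between the batches in raw CPM, and all 10 overlapped after correction.

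Cd3e differed from its partners. In raw CPM it lay between 28.04 and 50.6 in 8 of the 9 libraries, and at 155 in NT 1, the library that the raw table calls LSD1i 1. NT 1 held 4370 Cd3e reads, 3.05 times the next highest library in CPM on plain totals with 0.5 added, while its Cd3d (194 raw CPM) and Cd3g (279.9 raw CPM) lay at the level of NT 2 (198 and 289). After correction Cd3e was at 41.6, 32.5, 80.6 and 37.1 CPM in LSD1i 1 to LSD1i 4, against 107, 36.9, 73.2, 31.6 and 40.3 CPM in NT 1 to NT 5. LSD1i 3 and NT 3 were therefore 1.59 and 1.62 times their raw level, NT 1 was 0.693 times its own and LSD1i 4 and NT 4 were 0.810 and 0.775 times theirs. For the other 9 genes this factor ran from 0.737 to 1.44.

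The coefficient of variation of Cd3e was 23.3% in LSD1i libraries and 80.3% in NT libraries before correction, and 46.1% in LSD1i libraries and 55.4% in NT libraries after it. Its log2 fold change was −0.28 ± 0.38, with a 95% interval of −1.11 to 0.56 (adjusted p = 0.834 in edgeR's quasi-likelihood test), which allows a change of either sign larger than that of Cd8a. Without NT 1 the sign turned, to 0.08 in the batch-corrected counts (adjusted p = 0.944) and to 0.10 ± 0.13 in raw counts with the batch as a term (adjusted p = 0.761, both edgeR's quasi-likelihood test). In the second batch alone, which does not contain NT 1, Cd3e was at 50.6 and 45.9 raw CPM in LSD1i 3 and LSD1i 4, above the 45.2, 40.8 and 40.4 of NT 3, NT 4 and NT 5, a log2 fold change of 0.21 ± 0.11 (adjusted p = 0.482). The part of Rn45s or of other features of NT 1 in this value was not tested.

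**Figure D2:**
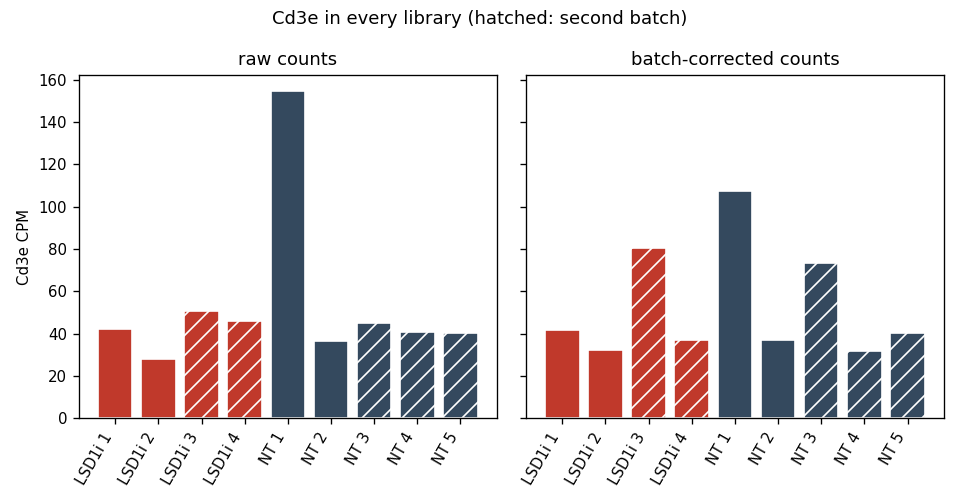
Cd3e in every library in CPM (bars from 0), from raw counts on the left and from batch-corrected counts on the right, LSD1i libraries in red before NT libraries in blue, with the second batch hatched. The single high bar at 155 raw CPM is NT 1; after correction LSD1i 3 and NT 3 stand at 80.6 and 73.2 CPM beside NT 1 at 107.

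Among the signalling genes, Lck, the kinase that starts the cascade, had 465, 429, 455 and 506 CPM in LSD1i 1 to LSD1i 4, against 491, 473, 453, 426 and 459 CPM in NT 1 to NT 5. The groups covered nearly the same range, with a log2 fold change of 0.01 ± 0.08 and a 95% interval of −0.16 to 0.18 (adjusted p = 0.972 in edgeR's quasi-likelihood test). Zap70, the kinase recruited to the phosphorylated chains, had 238, 219, 241 and 228 CPM in LSD1i 1 to LSD1i 4, against 209, 211, 231, 186 and 192 CPM in NT 1 to NT 5. Only NT 3 reached into the LSD1i range. Its log2 fold change of 0.17 ± 0.08 (95% interval −0.01 to 0.35) did not pass (adjusted p = 0.379 in edgeR's quasi-likelihood test).

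Lat, the scaffold downstream of Zap70, had 295, 305, 307 and 279 CPM in LSD1i 1 to LSD1i 4, against 266, 303, 298, 285 and 278 CPM in NT 1 to NT 5. The groups overlapped, and the log2 fold change was 0.05 ± 0.07, with a 95% interval of −0.11 to 0.21 (adjusted p = 0.839 in edgeR's quasi-likelihood test). Cd5 had 272, 233, 281 and 243 CPM in LSD1i 1 to LSD1i 4, against 251, 271, 272, 282 and 201 CPM in NT 1 to NT 5, NT 5 being the lowest of all. Its log2 fold change was 0.01 ± 0.11, with a 95% interval of −0.23 to 0.25 (adjusted p = 0.985 in edgeR's quasi-likelihood test). For Lck, Lat and Cd5 these intervals reach at most 1.13, 1.16 and 1.19 times the NT level, and they do not show equality.

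The same genes were also read in other ways. In raw counts with the batch-corrected names and the batch as a term, 0 of the 10 genes passed, where 1.85% of 11916 genes did, and 3 had an unadjusted p under 0.05. The log2 fold changes there were 0.35 ± 0.10 for Cd8a (adjusted p = 0.126), 0.29 ± 0.09 for Cd8b1 (0.218) and 0.27 ± 0.09 for Cd247 (0.191), all in edgeR's quasi-likelihood test. In raw counts under the raw table's own names, 0 of the 10 genes and 0% of the 11916 tested genes passed, 172 genes having an unadjusted p under 0.05 and DESeq2 not having been run on that table. Under those names Cd8a was at −0.04 ± 0.17, Cd247 at −0.0017 ± 0.16, Cd8b1 at 0.11 ± 0.14 and Cd3e at 0.88 ± 0.38 on the log2 scale. DESeq2 on the batch-corrected counts called 3 of the 10 genes higher, where 2.99% of 13443 genes were: Cd8a (adjusted p = 1.98e-04), Cd8b1 (0.0178) and Cd247 (0.0402). Of the 10 genes, 0 in the authors' deposited table carried a mark of change, where 0.688% of 20052 genes did. Cd8a stood there at a log2 fold change of 0.38 and an adjusted p of 0.0610. That mark does not rest on the adjusted p alone, since an unmarked gene reached 3.79e-06 in the authors' test. The rule of the mark is not stated, so its count is not comparable with the others here. The edgeR call of Cd8a was also lost without 1 library in 6 of 9 cases, namely without NT 2, NT 3, NT 4, LSD1i 1, LSD1i 2 or LSD1i 4, with adjusted p from 0.0611 to 0.101.

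**Figure D3:**
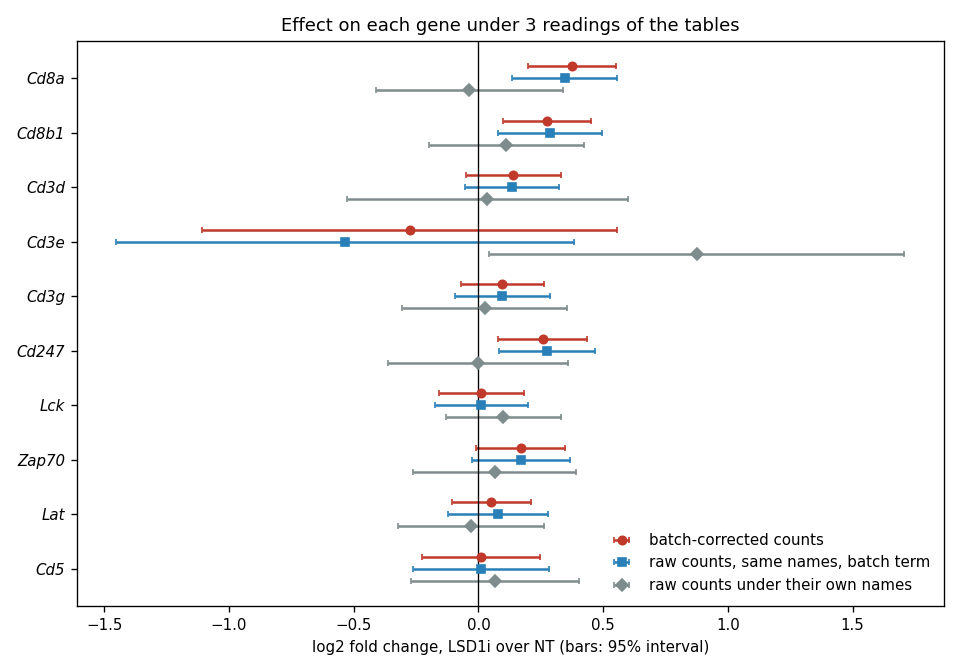
Log2 fold change of LSD1i over NT (horizontal axis, bars for the 95% interval) of each gene under 3 readings: batch-corrected counts (circles), raw counts with the same names and a batch term (squares) and raw counts under their own names (diamonds). The first 2 readings nearly coincide except at Cd3e (−0.28 and −0.53), and under the raw names the values of Cd8a and Cd247 lie at −0.04 and −0.0017.

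Ratios of reads within a library do not depend on how libraries are scaled, and are given as a description of the complex. The raw Cd8a to Cd3g ratio was 1.75 and 1.73 in LSD1i 1 and LSD1i 2 against 1.33 and 1.37 in NT 1 and NT 2. In the second batch it was 1.07 and 1.16 in LSD1i 3 and LSD1i 4 against 0.901, 0.982 and 1.14 in NT 3 to NT 5, where LSD1i 3 fell below NT 5. The 2 CD8 chains kept no common order across batches: their raw ratio Cd8a to Cd8b1 was 1.72 and 1.74 in LSD1i 1 and LSD1i 2 against 1.45 and 1.51 in NT 1 and NT 2, but 1.26 and 1.29 in LSD1i 3 and LSD1i 4 against 1.27, 1.37 and 1.40 in NT 3 to NT 5. Cd247 to Cd3g was 0.702 ± 0.0353 in LSD1i libraries (SD, n = 4) and 0.621 ± 0.0511 in NT libraries (n = 5). Cd3d to Cd3g was 0.828 ± 0.161 in LSD1i libraries and 0.832 ± 0.152 in NT libraries, with every second-batch library (0.862 to 1.05) above every first-batch library (0.634 to 0.760). The batches were also apart, the other way round, for Cd8a to Cd8b1 and for Cd8a to Cd3g.

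**Figure D4:**
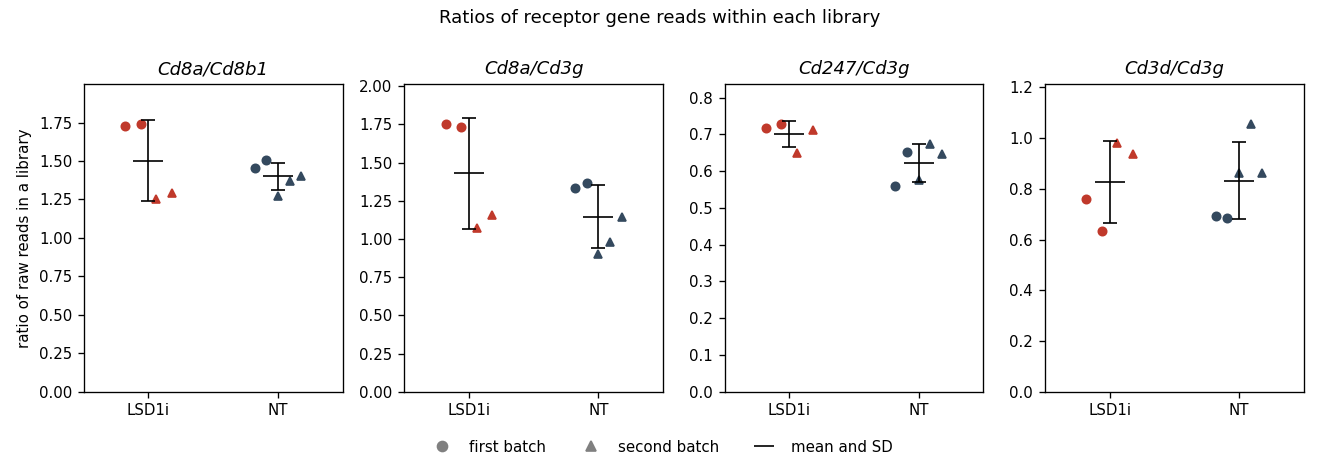
Ratio of raw reads of 2 receptor genes within each library (vertical axis, from 0), LSD1i left of NT, with circles for the first batch, triangles for the second, and black marks for the mean and SD. Cd3d to Cd3g splits by batch and not by treatment, at 0.828 in LSD1i and 0.832 in NT, and Cd8a to Cd8b1 is higher in LSD1i in the first batch but not in the second.

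Levels between genes were compared per kilobase of exon, with lengths from GENCODE vM21, an annotation of a later build than the one counted. By median raw CPM per kilobase, Cd3g stood highest at 332 in LSD1i libraries and 306 in NT libraries, and its range over all 9 libraries (274 to 381) lay above those of the other 9 genes. Lat (238 in LSD1i, 212 in NT), Cd8b1 (209.8 in LSD1i, 176 in NT), Lck (194 in LSD1i, 194 in NT) and Cd3d (181 in LSD1i, 187 in NT) followed, with ranges over libraries that overlap each other. Cd8a was at 153 in LSD1i and 119 in NT, Zap70 at 100.5 in LSD1i and 91.5 in NT and Cd5 at 82.3 in LSD1i and 84.2 in NT, and Zap70 overlapped both of its neighbours. Cd247 (50.9 in LSD1i, 46.4 in NT) and Cd3e (30.05 in LSD1i, 27.9 in NT) had the lowest medians. Cd247 ranged up to 60.7 and met the lower end of Cd5 (56.6), and Cd3e ranged from 19.2 to 106, the value of NT 1, and so overlapped Cd247, Cd5, Zap70 and Cd8a. GENCODE places 135 exon bases of Cd3e under a gene on the opposite strand, Gm48719, which the count tables do not list. Of the 4558 exon bases of Cd247 it places 2918 under Pou2f1 and 206 under Gm16565. How reads on shared bases were counted is not stated, so the level of Cd247 per kilobase, and its low rank, are uncertain.

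Among 9034 other genes averaging 3 or more in log2 CPM, those whose profile over the 9 libraries lay nearest to Cd8a were Pla2g12a, Gimap4, Tnfsf14, Pygo2 and Dnaja1. Their root mean square difference from Cd8a, in log2 CPM after centring each gene, was 0.0470 to 0.0633. Cd247 ranked 21st by this measure (0.0789) and Cd8b1 39th (0.0947), Zap70 531st and Cd3g 641st, and Cd3e was among the farthest, at rank 8943 (0.6996).

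Around the receptor, 83 genes in 4 lists of signalling partners and lineage regulators were tested, of which 4 rose and 1 fell in the batch-corrected counts, where 2.15% of all tested genes were called higher, 1.16% lower and 3.31% in either direction. These lists were chosen with earlier results of these data known, so their shares beside those of all genes are a description and no independent test. Of 24 proximal kinases and adaptors 4 rose and 0 fell in edgeR, with a median log2 fold change of 0.05, where 2.15% of all tested genes rose. An unadjusted p under 0.05 was reached by 7 of the 24, against 14.6% of all genes, and DESeq2 called 5 higher and 1 lower, the Lat-associated adaptor gene Lcp2, against 2.99% and 1.89% of all genes. Txk, a Tec family kinase of T cells, had 77.9, 64.1, 96.1 and 63.3 CPM in LSD1i 1 to LSD1i 4, against 43.3, 23.7, 39.6, 24.2 and 24.7 CPM in NT 1 to NT 5. The lowest LSD1i library stood clear of the highest NT library, and the log2 fold change was 1.27 ± 0.21 (adjusted p = 0.00592 in edgeR's quasi-likelihood test). Trat1, a transmembrane adaptor that associates with the receptor, had 12.8 to 15.95 CPM in LSD1i libraries and 4.09 to 9.41 in NT libraries, a log2 fold change of 1.12 ± 0.23 (adjusted p = 0.0218 in the same test). Nck2, an adaptor of a family that binds the tail of CD3 epsilon, averaged 36.2 ± 1.95 CPM in LSD1i libraries and 24.6 ± 2.46 in NT libraries, a log2 fold change of 0.56 ± 0.09 (adjusted p = 0.00745 in the same test). Skap1, an adaptor that couples the receptor to integrins, averaged 143 ± 8.89 CPM in LSD1i libraries and 107 ± 8.96 in NT libraries, a log2 fold change of 0.42 ± 0.08 (adjusted p = 0.0195 in the same test). With raw counts and the batch term Txk (adjusted p = 0.0122), Nck2 (0.0322) and Skap1 (0.0446) passed and Trat1 (0.105) did not, and without 1 library the call of Skap1 was lost without LSD1i 3 or LSD1i 4 (adjusted p = 0.0552 and 0.0821) and that of Trat1 without LSD1i 1, LSD1i 2 or LSD1i 4 (adjusted p up to 0.0770).

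Of 25 negative regulators of receptor signalling 0 rose and 1 fell in edgeR, with a median log2 fold change of 0.01. Of all tested genes 1.16% fell. An unadjusted p under 0.05 was reached by 5 of the 25, against 14.6% of all genes, and DESeq2 called 0 higher and 3 lower, Dusp6, Dusp5 and Pag1, against 1.89% of all genes called lower. The gene that fell was Dusp6, a phosphatase that switches off ERK kinases, at 31.7, 23.5, 29.8 and 19.5 CPM in LSD1i 1 to LSD1i 4, against 36.7, 37.6, 37.4, 44.4 and 41.0 CPM in NT 1 to NT 5. Every LSD1i library lay below every NT library, and the log2 fold change was −0.59 ± 0.14 (adjusted p = 0.0408 in edgeR's quasi-likelihood test). The raw fit with a batch term did not call it (adjusted p = 0.134), and neither did edgeR when 1 library was left out in 7 of 9 cases (adjusted p up to 0.116), all except NT 1 and LSD1i 1.

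Of 18 genes of the calcium, NFAT and NF-kB arm 0 rose and 0 fell in edgeR, with a median log2 fold change of −0.04. The smallest p-values were those of Itpr1, an endoplasmic reticulum calcium channel (−0.25 ± 0.10, adjusted p = 0.237), Nfkb1, an NF-kB subunit (−0.22 ± 0.10, 0.307), and Malt1, a scaffold protease of that arm (−0.26 ± 0.12, 0.353). Of 16 regulators of the CD4 and CD8 lineages 0 rose and 0 fell in edgeR, with a median of −0.06. Myb, a transcription factor of progenitors, was at 59.0 ± 6.44 CPM in LSD1i libraries and 82.0 ± 11.2 in NT libraries (log2 fold change −0.47 ± 0.12, adjusted p = 0.0529), without overlap. Ets1, a founding ETS factor active in T cells, was at 511 ± 18.7 CPM in LSD1i libraries and 428 ± 36.3 in NT libraries (0.26 ± 0.08, adjusted p = 0.134). Gata3, a transcription factor that favours the CD4 lineage, was at 6.83 ± 1.12 CPM in LSD1i libraries and 8.93 ± 1.79 in NT libraries (−0.39 ± 0.17, adjusted p = 0.305). An unadjusted p under 0.05 was reached by 2 of the 18 genes of the calcium list and 4 of the 16 of the lineage list, where 14.6% of all genes reached it. DESeq2 called 0 of the first and 2 of the second, Myb (adjusted p = 0.0103) and Ets1 (0.0413).

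**Figure D5:**
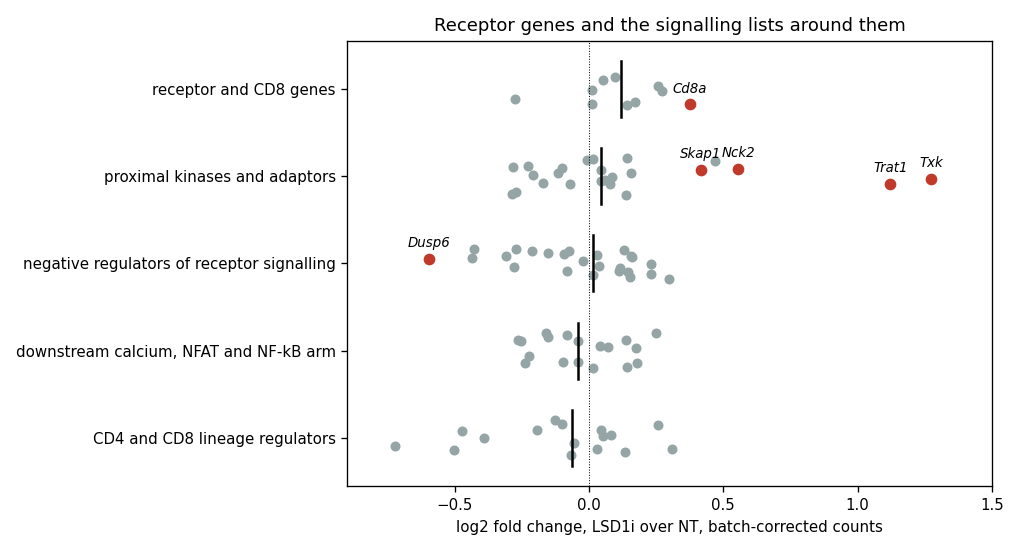
Log2 fold change of LSD1i over NT in batch-corrected counts (horizontal axis) of the receptor genes and of 4 lists around them, 1 point per tested gene, with red for an adjusted p under 0.05 in edgeR and a black line at the list's median. The called genes are Cd8a (0.38) among the receptor genes, Skap1, Nck2, Trat1 and Txk (0.42 to 1.27) among the adaptors and kinases, and Dusp6 (−0.59) among the negative regulators.

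Low-level markers of other lymphocytes moved beside these genes. Cd22, a B cell lectin, had 17 to 55 raw reads in LSD1i libraries and 0 to 9 in NT libraries, and Cd40lg, the CD40 ligand of helper T cells, 16 to 29 in LSD1i libraries and 0 to 6 in NT libraries. Both rose in the batch-corrected counts (log2 fold changes 3.52 ± 0.54 and 3.58 ± 0.54), at 1.69 ± 0.487 CPM in LSD1i libraries and 0.125 ± 0.152 in NT libraries for Cd22, while Cd79b, part of the B cell receptor, fell (−0.43 ± 0.09, adjusted p = 0.0317, but 0.132 in raw counts with the batch term), all in edgeR's quasi-likelihood test. Their part in the results above was not tested. Kit (1.10 ± 0.46, adjusted p = 0.297) did not pass. The B cell genes Ms4a1 and Pax5 had at most 3 reads in any library, and Cd4 at most 7.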

How the data were processed

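RNA was sequenced from CD8+ T cells in 4 LSD1i and 5 NT libraries. Per the labels' protocols, total RNA was used with a SMARTer mRNA kit. STAR, featureCounts, edgeR and mm9 are named in the submitters' processing notes, with no strand setting or batch-correction method in the labels or file headers. The authors deposited raw counts of reads per gene, estimated counts after batch correction (rounded to whole numbers before testing) and a table of log2 fold changes, F scores and p-values. Libraries of both count tables were paired by the genes at 0 in 1 table only (0 for each partner, at least 1336 for the next best). Any 2 libraries of 1 group differed by more than counting noise in raw counts (lowest chi-square per degree of freedom 7.43, NT 3 and NT 4). It was 18.2 for LSD1i 1 and LSD1i 2 and 17.1 for LSD1i 3 and LSD1i 4, against 132 to 161 for the other LSD1i pairs. NT 1 and NT 2 stood at 173, and NT 2 at 104 to 135 from NT 3 to NT 5. Whether close libraries share an animal or a culture is not stated.

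Log2 fold changes, standard errors and 95% intervals of LSD1i over NT were computed on all genes with edgeR 4.0.16 (R 4.3.3; quasi-likelihood, TMM, minimum count 10 and total 15, Benjamini-Hochberg at 0.05). DESeq2 1.42.0 was an alternative. CPM are TMM-scaled. Fits were tried on simulated counts, with planted changes larger than those of the 10 genes in batch-corrected counts. No batch-correction step was simulated, so this cannot show whether p-values from corrected counts are sound. The genes and lists were chosen with earlier results of these data known. From each list every gene past the threshold was named, otherwise up to 3 with the smallest p. Lcp2, Dusp5 and Pag1 were named after their values were seen. Raw fits under batch-corrected names (group only, or without NT 1) were added after seeing the data. Libraries had 15163983 to 29245278 reads, and genes with few reads are less precise.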

Additional observations from a re-analysis of the deposited data

Results flagged for a closer look

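Of 64 groups of 4 or 5 values checked among the 10 genes and their read ratios, 4 held a library set far apart from the rest of its group, by Dixon's 95% criterion, where chance flags about 5% of groups. In raw CPM, NT 1 stood at 155 for Cd3e, far above the other NT libraries, and its raw Cd3e to Cd3g read ratio of 0.553 did the same. Cd3d in batch-corrected CPM was lowest in NT 5, at 223. Lat in raw CPM was highest in NT 2, at 331. No tested gene's effect differed between batches at an adjusted p under 0.05 in edgeR (0 of 11916, with 581 at an unadjusted p under 0.05 and no other tool run), and for Cd3e the interaction was 1.65 ± 0.66 (adjusted p = 0.764).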

How the results depend on the processing

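Over all genes 397 were called (258 higher, 139 lower), and among the 10 genes 1. DESeq2 called 656 (402 higher, 254 lower) and 3 of the 10. Raw counts as named called 0 (0 higher, 0 lower) and 0 of the 10. Raw counts with the batch-corrected names called 220 with the batch term (166 higher, 54 lower), 331 with that term and without NT 1 (76 lower), 84 with the group only (71 higher, 13 lower), 117 in the second batch alone (97 higher, 20 lower) and 8 in the first (8 higher, 0 lower), each with 0 of the 10. RLE scaling gave 391 and no filter 398, each with Cd8a. Leaving out 1 library gave 219 to 432 calls (163 to 303 higher, 56 to 159 lower) and 0 to 1 of the 10, the lowest totals being without LSD1i 4 (219), LSD1i 1 (228) and LSD1i 3 (251). Signs turned under the raw names for Cd3e (0.88), Cd247 (−0.0017), Cd8a (−0.037), Lat (−0.030), Trat1 (−0.047), Itpr1 (0.077), Gata3 (0.11) and Cd22 (−0.43); in the first batch alone for Lck (−0.11), Cd5 (−0.054) and Kit (−0.32); and for Cd3e in the second batch alone (0.21) and with the batch term without NT 1 (0.10). Leaving out 1 library gave −0.63 to 0.078 for Cd3e, −0.033 to 0.058 for Lck and −0.059 to 0.065 for Cd5. The cause was not tested. Replicate numbers are shared by the groups, but the main fit did not treat same-numbered libraries as pairs. Their deviations did not all go together (correlations −0.299 to 0.232), and every LSD1i library lay nearest to an NT library of another number. These correlations used batch-corrected values centred within each group, from which shared batch variation was already removed, so they cannot exclude pairing. With the replicate block, batch-corrected counts gave 326 calls (219 higher, 107 lower) and 1 of the 10, raw counts with the batch-corrected names 352 (236 higher, 116 lower) and 0 of the 10 (Cd8a adjusted p = 0.0548), and Cd5 turned to −0.067 and −0.075. With that block Skap1 (adjusted p = 0.0780 batch-corrected, 0.0690 raw), Dusp6 (0.0902 and 0.118) and Cd79b (0.115 and 0.164) did not pass in edgeR. The 10 genes had at least 578 raw reads in every library, whereas Cd22 and Cd40lg had 0 in some NT libraries.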

Other observations

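Cd3e was not alone in standing out in NT 1. Of 10212 genes with at least 100 raw reads in 1 library, 108 were at least 2-fold higher in NT 1 than in every other library on plain totals, against 0 to 17 in each of the other 8. Among the receptor genes and the 4 lists around them, these were Cd3e, the calcium-regulated transcription factors Nfatc1 and Nfatc2, and Runx3, a transcription factor of the CD8 lineage. Whether the Rn45s share of NT 1 has a part in this was not tested.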
